A study of Mus musculus with 2 samples.

Results

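Hey1, Hey2, Heyl, Hes1, Hes6, Id1, Id2, Id3 and Id4 encode helix-loop-helix repressor proteins, and they were taken by symbol from the deposited gene tables: 9 genes of the 55536 annotated ones, each matched to 1 row. The study sequenced polyA RNA of whole mouse hearts at embryonic day 12.5 in 2 libraries, biological replicates 1 and 2 of a single group. The embryos were of strain B6NCrl with no genetic change or treatment named in the labels, and hearts of males and females were pooled. Per the labels, each library was made from 10 ng of RNA by Nextera tagmentation with ERCC spike-ins (synthetic RNAs of known sequence), and both replicates carry the same donor identifier but separate biosamples. There is no second condition, so what can be described is the level of each gene, the order of the levels, the forms of each message and how far the libraries differed.

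Hey and Hes proteins are basic helix-loop-helix factors that bind DNA as dimers and repress genes through corepressors, which for Hes1 are of the Groucho family. Hey1, Hey2, Heyl and Hes1 are known as direct targets of Notch signalling, in which a cleaved receptor enters the nucleus and joins the DNA-binding protein Rbpj. Id proteins keep the helix-loop-helix but lack the basic region that contacts DNA, so they hold E proteins in dimers that cannot bind, and Id genes are known targets of BMP signalling through Smad proteins. In the developing heart Hey1 and Hey2 are known for keeping the atrioventricular canal and its valve cushions apart from the chambers.

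The coding sequences show how close the members are where they are most alike, which matters for the assignment of reads. The windows printed here are 60 bases of coding sequence within the helix-loop-helix, from GENCODE M21 on mm10, each inside 1 exon. They were picked, in frame and without gaps, for the highest summed identity to Id1 or to Hey1. Their identities are thus not typical of the whole coding sequences. Capitals mark bases identical in all 4 Id genes.
Id1 (chr2:152736587-152736646, plus strand): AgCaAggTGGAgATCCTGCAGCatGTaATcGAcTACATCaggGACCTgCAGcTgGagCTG
Id2 (chr12:25095774-25095833, minus strand): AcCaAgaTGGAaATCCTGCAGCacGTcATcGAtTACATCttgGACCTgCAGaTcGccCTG
Id3 (chr4:136144071-136144130, plus strand): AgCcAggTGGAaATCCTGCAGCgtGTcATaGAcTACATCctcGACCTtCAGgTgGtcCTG
Id4 (chr13:48261762-48261821, plus strand): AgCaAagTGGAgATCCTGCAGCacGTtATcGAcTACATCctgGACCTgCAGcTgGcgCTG
In these Id windows 42 of 60 bases were identical in all 4 genes, and the closest pair, Id1 and Id4, shared 90% of them. The next windows hold the matching part of the Hey and Hes genes, with capitals at bases identical in all 5.
Hey2 (chr10:30837491-30837550, minus strand): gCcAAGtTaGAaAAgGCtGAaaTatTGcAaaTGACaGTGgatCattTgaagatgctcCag
Hey1 (chr3:8665961-8666020, minus strand): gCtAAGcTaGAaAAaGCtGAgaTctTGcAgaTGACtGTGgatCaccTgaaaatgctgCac
Heyl (chr4:123243030-123243089, plus strand): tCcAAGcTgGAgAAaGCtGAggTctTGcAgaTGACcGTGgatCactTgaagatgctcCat
Hes1 (chr16:30066175-30066234, plus strand): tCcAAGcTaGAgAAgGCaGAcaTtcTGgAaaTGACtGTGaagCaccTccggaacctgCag
Hes6 (chr1:91412737-91412796, minus strand): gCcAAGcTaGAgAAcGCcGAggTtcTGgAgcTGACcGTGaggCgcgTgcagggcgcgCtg
Here 27 of 60 bases were identical in all 5 genes. The closest pair, Hey1 and Heyl, shared 83.3% of the window, and the most distant, Hey2 and Hes6, shared 56.7%. The authors' tables give a posterior SD of each gene's count, which grows where reads could belong to several genes. It was 0 in both libraries for all members but Id4, where it was 0.19 counts in replicate 1 and 0.30 in replicate 2. Id4 also overlaps annotated genes on the opposite strand, described below, and the source of its SD was not tested.

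All 9 members were detected, meaning at least 1 TPM in both libraries. TPM is a transcript abundance scaled by effective length and by the library total. Of all annotated genes 14246 (25.7%) and of the 22028 protein-coding genes 12468 (56.6%) met that level. The median of the members was 39.4 TPM, beside 19.1 TPM over the detected protein-coding genes. In bulk tissue, a low level from few cells of a type and one from little RNA per cell cannot be told apart.

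The Hey genes stood in the order Hey2, Hey1, Heyl. Hey2 (ENSMUSG00000019789, chromosome 10, 30832359 to 30842801 on mm10), known for its expression in the ventricular compact wall and for repressing atrial genes, was at 37.2 TPM in replicate 1 and at 41.5 in replicate 2, from 2236 and 2251 reads. Hey1 (ENSMUSG00000040289, chromosome 3, 8663359 to 8667256), known from the atria and the endocardium, was at 14.6 TPM in replicate 1 and at 13.7 in replicate 2, from 799 and 670 reads. Heyl (ENSMUSG00000032744, chromosome 4, 123233556 to 123249875), known from vascular smooth muscle, was at 5.72 and 5.31 TPM, from 554 and 482 reads. The values of the 3 genes did not overlap, and the differences between the libraries within each gene were small beside the gaps between genes. Hey2 held 66.6 ± 2.74% of the summed Hey level (SD, n = 2), Hey1 23.998 ± 1.91% and Heyl 9.36 ± 0.822%. Hey2 thus stood 2.79 ± 0.337 times over Hey1 and 7.16 ± 0.921 times over Heyl.

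Of the Hes genes, Hes6 stood above Hes1. Hes6 (ENSMUSG00000067071, chromosome 1, 91411483 to 91414038), a relative known for opposing Hes1 and favouring differentiation in other tissues, was at 49.8 TPM in replicate 1 and at 50.95 in replicate 2. Hes1 (ENSMUSG00000022528, chromosome 16, 30064384 to 30067796), the Notch target that keeps many progenitors undifferentiated, was at 25.6 and 27.0 TPM. The ratio of Hes6 to Hes1 was 1.95 in replicate 1 and 1.88 in replicate 2, so the gap between the genes was larger than the spread between the libraries. Of 7 further genes of the same Hes class and its relatives, 2 were detected, Bhlhe40 at 18.045 ± 0.742 TPM and Bhlhe41 at 5.23 ± 0.276 TPM, both known from the circadian clock. Hes7, an oscillating gene of somite formation, was at 0.590 ± 0.0566 TPM, and Hes2 and Helt were listed at 0 in both libraries.

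The Id genes covered the widest range of the families. Id2 (ENSMUSG00000020644, chromosome 12, 25093799 to 25097140) was at 339 TPM in replicate 1 and at 344 in replicate 2, from 9712 and 8893 reads. Id3 (ENSMUSG00000007872, chromosome 4, 136143497 to 136145755) was at 251 and 249.9 TPM, from 7082 and 6383 reads. Id1 (ENSMUSG00000042745, chromosome 2, 152736251 to 152737410) was at 68.7 and 70.8 TPM. These 3 are the Id genes known from the embryonic heart, and their levels did not overlap. Id4 (ENSMUSG00000021379, chromosome 13, 48261228 to 48266026), known mainly from the nervous system, was at 3.47 and 3.67 TPM, from 320.96 and 306.9 expected counts. Id2 held 51.3 ± 0.124% of the summed Id level, Id3 37.6 ± 0.303%, Id1 10.5 ± 0.161% and Id4 0.537 ± 0.0179%. By level, Id2 ranked 348 and Id4 10855 among protein-coding genes.

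Across all members the order was Id2, Id3, Id1, Hes6, Hey2, Hes1, Hey1, Heyl, Id4. Each of the 36 pairs of members stood in the same order in both libraries, with a log2 ratio larger than its difference between the libraries and with ranges that did not overlap. The narrowest gap between neighbours was Hes6 over Hey2, at 1.34 times in replicate 1 and 1.23 times in replicate 2. The smallest relative gap after it was Id2 over Id3, at 1.35 and 1.37 times. The spread of the libraries does not cover errors of gene model, length or coverage, which both libraries share. By read count instead of TPM, Hey2 ranked 3 among the members, above Hes6 and Id1, because its model is longer (2533 bases in replicate 1, beside 1364 for Hes6 and 947.3 for Id1).

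**Figure D1:**
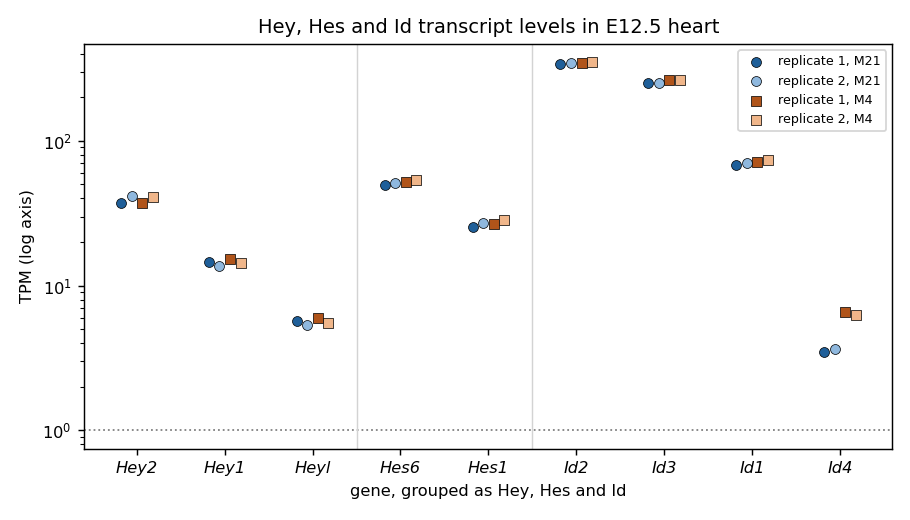
TPM (log axis) of each gene in both libraries on the M21 annotation (circles) and the older M4 annotation (squares), with a dotted line at 1 TPM. Levels of the 2 libraries lie close for every gene. Id4 is the gene whose level differs most between annotations, from 3.47 and 3.67 TPM on M21 to 6.53 and 6.24 TPM on M4. The mean levels of the other 8 differ by less than 5%.

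The place of Id4 at the bottom of the order depended on the gene model. On the M4 annotation its model was 1660 bases long, beside 3849 on M21, and it received 240.99 and 207.99 expected counts. The M4 level was 1.79 times the M21 level, and it stood above Heyl, at 5.93 and 5.52 TPM there. The other 8 members differed between annotations by less than 5%, with ratios of M4 to M21 from 0.989 to 1.05. Id4 was also the member with annotated genes on the opposite strand: A330033J07Rik was listed at 0 in both libraries, and Gm49291 was at 0.15 and 0.18 TPM. The use of strand in counting is not given. Gm49291 received 8.04 and 9.09 expected counts, beside 320.96 and 306.91 for Id4 on M21. That assignment left the Id4 count a posterior SD of 0.19 in replicate 1 and 0.30 in replicate 2. Its accuracy where the genes overlap was not tested.

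Summed over its members, the Id family was at 662 TPM in replicate 1 and at 668 in replicate 2, the Hes pair at 75.4 and 77.98 TPM and the Hey family at 57.6 and 60.5 TPM. Id messages were thus 11.5 times the Hey messages in replicate 1 and 11.0 times in replicate 2. The 3 genes of E proteins, the partners that Id proteins hold, summed to 157 and 165 TPM, so the Id sum was 4.21 times theirs in replicate 1 and 4.05 times in replicate 2. Among them Tcf3 was at 68.4 ± 1.72 TPM and Tcf12 at 36.3 ± 1.80 TPM. Of 14 listed tissue-restricted bHLH genes, a class whose proteins pair with E proteins, 8 were detected and all 14 summed to 167 TPM in each library. Tcf21, an epicardial factor, led them at 58.97 ± 1.39 TPM, then Hand1, a factor of the left ventricle, at 50.05 ± 2.16 TPM and Lyl1, a blood and endothelial factor, at 14.7 ± 0.933 TPM. The Id sum was thus larger than the sums of both lists in each library. These are sums of messages over the listed genes in whole hearts. Amounts of protein, and whether the same cells held these messages, were not measured.

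The signalling genes upstream were also present. Of 9 Notch receptors and ligands 8 were detected, with the ligand Jag1 at 20.6 ± 0.163 TPM and the receptors Notch1 at 15.9 ± 0.0283 TPM and Notch2 at 13.4 ± 0.523 TPM. Of 21 genes of Notch processing and its nuclear complex 20 were detected, led by Ncstn and Psenen, subunits of the gamma-secretase that frees the receptor, at 103.0 ± 0.00707 and 93.4 ± 5.68 TPM. Adam10, the protease of the preceding cut, was at 83.2 ± 0.552 TPM. The receptor and ligand genes lay below Hey2 in level, while the processing genes reached above it.

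Of 7 BMP ligands 6 were detected, led by Bmp7 at 53.9 ± 1.78 TPM, Bmp4 at 30.025 ± 2.98 TPM and Bmp2 at 19.3 ± 1.36 TPM. All 12 genes of BMP receptors and Smads were detected. Eng, a co-receptor of endothelial cells, was at 128 ± 4.91 TPM, the receptor Bmpr1a at 43.7 ± 2.06 TPM and Smad1, which carries the signal to the nucleus, at 23.5 ± 1.46 TPM. BMP inhibitors were detected for 9 of 13 genes, among them Twsg1, a secreted modulator, at 85.1 ± 0.608 TPM and Smad6, an inhibitory Smad, at 46.4 ± 3.51 TPM. Id2 and Id3 stood above every gene of these BMP lists.

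All 12 Groucho and corepressor genes were detected. Aes, a short Groucho relative, was at 512 ± 20.6 TPM, and the histone deacetylase genes Hdac2 and Hdac1 at 146 ± 6.41 and 112 ± 2.93 TPM. All 8 genes known with Hey factors from the patterning of chambers and canal were detected too. Nppa, Myl7 and Myl4 led these at 4542 ± 126.5, 4479 ± 244.2 and 1932 ± 9.23 TPM. A whole heart holds atria and ventricles, so these levels do not show which cells held Hey messages.

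**Figure D2:**
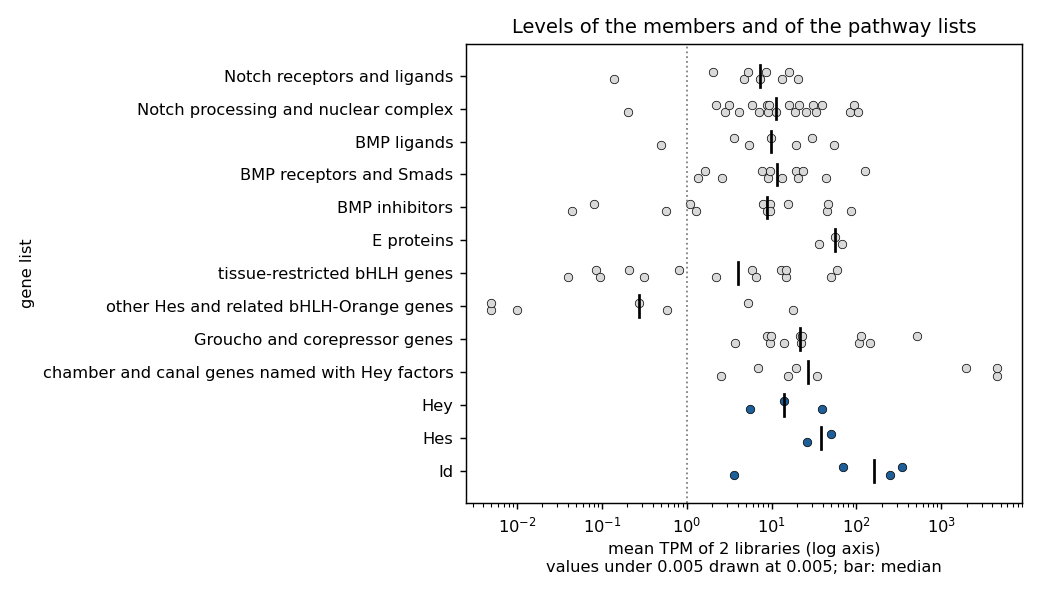
Mean TPM over 2 libraries (log axis) of each gene in the pathway lists (grey) and in the Hey, Hes and Id families (blue), with a bar at each list's median and a dotted line at 1 TPM. The 3 blue points far right in the Id row are Id1, Id2 and Id3, and 5 of 7 genes of the other Hes list lie under 1 TPM.

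The messages of most members came from 1 transcript form. The members have 27 annotated transcripts, of which 12 are coding, 9 are of the retained intron class and 6 are processed transcripts without a coding region. The leading form took at least 90% of the gene's TPM in both libraries for 7 of the 9 genes, and 96.1 ± 0.0615% for Id2. The exceptions were Heyl, where Heyl-201 took 87.6% in replicate 1 and 90.98% in replicate 2, and Hes6, where Hes6-201 took 84.1 and 83.1%. By counts not divided by length, Heyl-201 held 98.95 and 99.4% of its gene. The short Heyl-202 (374 bases) rested on 3.70 and 2.93 expected counts, with posterior SDs of 2.92 and 2.41. At Hey2 the leading form Hey2-201 received 2140 reads in each library, which is 35.4 TPM in replicate 1 and 39.1 in the less deeply sequenced replicate 2. Hey2-202 received 96 and 111 reads, or 1.85 and 2.36 TPM.

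Of the 27 transcripts, 8 in 5 genes contain a whole intron of the leading form. Hes6 had the largest share of these: Hes6-202, which keeps intron 3 (chromosome 1, 91412483 to 91412720, 238 bases), took 13.2% of the Hes6 TPM in replicate 1 and 16.4% in replicate 2. At Hey1, Hey1-203 (intron 3) and Hey1-202 (intron 2) together took 6.03 and 6.06% of the TPM, but singly they were uneven, at 2.54 and 4.09% for Hey1-203 and at 3.50 and 1.97% for Hey1-202. Hey2-202 keeps intron 2 (129 bases) and took 4.97 and 5.69%. Hes6-203, which keeps intron 1 (77 bases), was read from 35.56 and 7.34 expected counts, with a posterior SD of 16.1 counts in replicate 1. The Hes6-202 and Hey2-202 shares were thus, relative to their size, closer between the libraries than those of Hes6-203 and of the single Hey1 forms.

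At Id1 and Id2 the form that keeps an intron is annotated as coding, with another protein end. Id1-202 keeps the only intron of Id1 (chromosome 2, 152736746 to 152736971, 226 bases) and took 5.88% of the Id1 TPM in replicate 1 and 4.49% in replicate 2. Id2-203 keeps intron 1 of Id2 (chromosome 12, 25095375 to 25095662, 288 bases) and took 3.75 and 3.804%. The ends of the coding sequences are printed to show where the forms part, with the last 24 bases before the splice junction in lower case and the bases after it, up to and with the stop codon, in capitals.
Id1-201 (chr2:152736722-152737013, intron left out, plus strand): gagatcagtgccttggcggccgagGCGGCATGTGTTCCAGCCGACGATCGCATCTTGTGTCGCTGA
Id1-202 (chr2:152736722-152736847, plus strand): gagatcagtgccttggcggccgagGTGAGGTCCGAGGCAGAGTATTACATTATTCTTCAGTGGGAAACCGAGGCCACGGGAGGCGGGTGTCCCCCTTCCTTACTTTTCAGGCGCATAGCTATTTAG
Id2-201 (chr12:25095318-25095686, intron left out, minus strand): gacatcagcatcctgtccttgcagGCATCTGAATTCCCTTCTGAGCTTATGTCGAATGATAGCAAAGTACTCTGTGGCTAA
Id2-203 (chr12:25095543-25095686, minus strand): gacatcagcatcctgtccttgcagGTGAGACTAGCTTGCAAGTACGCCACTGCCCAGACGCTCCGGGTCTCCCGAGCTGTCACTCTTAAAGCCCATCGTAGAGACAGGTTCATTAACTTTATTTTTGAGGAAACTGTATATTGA
Reading on into the intron brought a TAG stop at Id1 in place of TGA, and 168 codons in place of 148. At Id2 it brought a TGA stop in place of TAA, and 155 codons in place of 134. Reads of the shared exons were divided between the forms by the estimation, and the posterior SD in replicate 1 was 14.9 counts for Id1-202, which received 105.75, and 11.2 counts for Id2-203, which received 269.

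**Figure D3:**
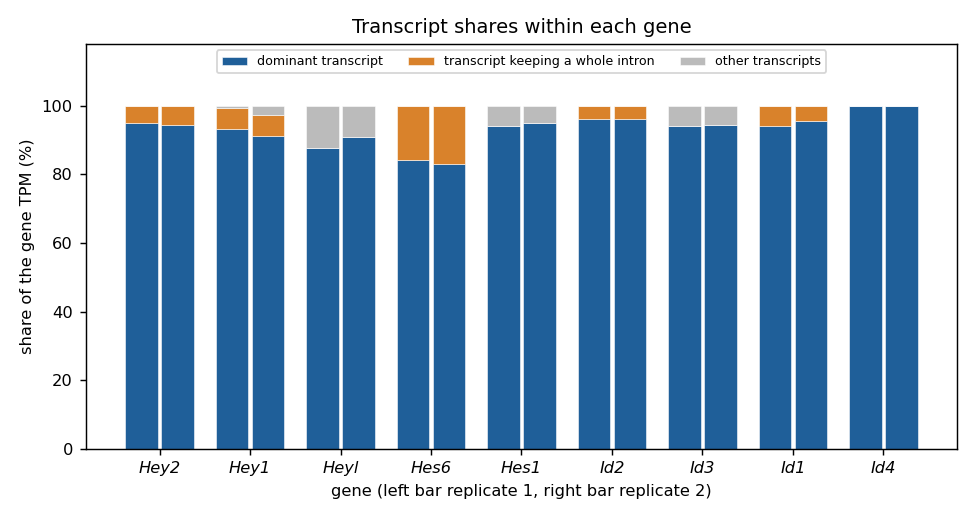
Share of each gene's TPM (%) in the leading transcript (blue), in transcripts that keep a whole intron (orange) and in all others (grey), with replicate 1 left and replicate 2 right for each gene. Hes6 has the largest orange share, 15.9% in replicate 1 and 16.9% in replicate 2, and Id4 has a single annotated transcript.

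RefSeq windows from 250 bases before to 50 after the gene start (GRCm38.p6) matched 5 members, with 6 windows: Hey2, Hes6 with 2 windows, Id2, Id3 and Id4. Hey1, Heyl, Hes1 and Id1 were not matched. The letters GTGGGAA, a form of the Rbpj site, were searched on both strands and occurred in 6.38% of 32851 windows of this length, and among the members in Hey2 alone. Hey2 held them at 2 places, which are shown because Hey2 is the most abundant Notch target here, with the match in capitals and positions counted from the start.
Hey2 at -207 (chr10:30842972-30843001, minus strand): gcgcggtggcaTTCCCACgcctctgccaac
Hey2 at -4 (chr10:30842769-30842798, minus strand): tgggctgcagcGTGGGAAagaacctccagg
The shorter TGGGAA, contained in that motif, occurred in 25.6% of all windows and in those of Hey2 and Id4. The letters GGCGCC, a GC-rich motif that Smad proteins can bind, occurred in 11.9% of all windows and in those of Hey2, Id2 and Id4. Also searched were the E-box forms CACGTG and CACGCG, which occurred in 7.15% and 9.27% of all windows and in none of the 6 member windows. A match of letters is a description and not a measured site.

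The libraries were then compared gene by gene, the one contrast these data allow. For each of the 17970 genes with 20 or more rounded reads in all, a two-sided exact binomial test took the total as given, after TMM scaling in edgeR. A called gene had a Benjamini-Hochberg adjusted p under 0.05 and at least a 2-fold ratio (1 on the log2 scale). It measures counting error between these 2 libraries and nothing else. None of the 9 members was called, where 1.45% of all genes tested were (0.64% higher and 0.807% lower in replicate 2). The edgeR exact test called none of them either. Its spread was estimated from these same 2 libraries, so their difference is part of that spread and the test is no independent support. In the binomial test 1 of 9 had an unadjusted p under 0.05. By adjusted p alone 1 of 9 members passed, beside 9.71% of all genes (4.12% higher and 5.59% lower in replicate 2).

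That member was Hey2, with a log2 ratio of replicate 2 over replicate 1 of 0.12 (95% exact interval 0.04 to 0.21; adjusted p = 0.0468 by the exact binomial test). The pass did not hold in the binomial test on the M4 annotation (adjusted p = 0.0720), with spike-in totals as scaling (0.0713) or without the filter on low counts (0.0707). Nor did it hold with the exact test of edgeR, which allows for spread beyond counting (0.992). That spread holds the difference between these 2 libraries, so the edgeR result cannot decide about Hey2. Hey1 lay on the other side at -0.14 (-0.29 to 0.01; adjusted p = 0.270 by the exact binomial test) and Heyl at -0.09 (-0.27 to 0.09). The remaining log2 ratios were between -0.04 for Id3 and 0.06 for Hes1. The median log2 ratio was 0.01 over the members and -0.01 over all genes tested, and the median absolute log2 ratio was 0.05 beside 0.10. Among genes with 100 or more reads in all, which every member had, it was 0.07.

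**Figure D4:**
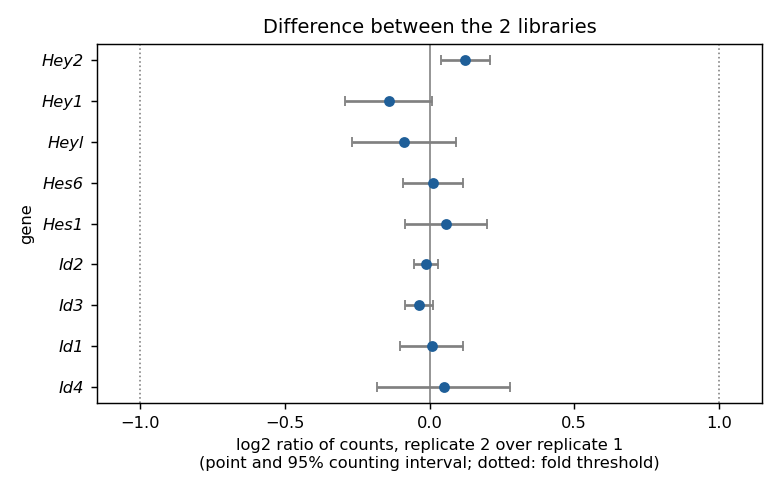
Log2 ratio of scaled counts, replicate 2 over replicate 1, for each gene with its 95% exact counting interval, and dotted lines at the fold threshold of 1 on either side. All 9 points lie within 0.15 of 0, and the Hey2 interval, 0.04 to 0.21, is the only one that leaves out 0.

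Among 105 pathway genes 94 were tested, and 1 was called, beside 1.45% of all genes tested. Msc, a bHLH repressor of muscle precursors, was at 1.20 TPM in replicate 1 and at 0.41 in replicate 2, from 40 and 15 rounded counts (log2 ratio -1.27, adjusted p = 0.0331 by the exact binomial test). The edgeR exact test called no pathway gene, Msc included, with the limit given above. By adjusted p alone 6 pathway genes were higher and 7 lower in replicate 2, beside 4.12% and 5.59% of all genes. Tcf12 was among the higher ones, with a log2 ratio of 0.14, and Bmp2 among the lower ones, with -0.18.

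The expected counts of the libraries totalled 35520161 and 32577548. ERCC spike-ins took 3.58% of them in replicate 1 and 3.63% in replicate 2, and the members took 0.0716 and 0.0719% of the counts on genes. The heart label matched its markers: all 8 of heart muscle passed 1 TPM, with a median of 2468 ± 5.56 TPM, as did all 8 of endocardium and endothelium, with a median of 52.9 ± 0.311 TPM. By adjusted p alone 3 heart muscle markers were higher and 2 lower in replicate 2, with 1 higher and 1 lower for endocardium and endothelium. None of these was called. Over all genes 4.12% passed as higher and 5.59% as lower. Markers of other cells also differed between the libraries in both directions. The 7 hepatocyte markers summed to 170.6 TPM in replicate 1 and 36.45 TPM in replicate 2, and 7 of 7 were called lower, with none at 0. Of 6 erythroid markers 5 passed the adjusted p as lower in replicate 2, beside 5.59% of all genes, and none was called. The 6 summed to 37589 TPM in replicate 1 and 33510 in replicate 2. Of 6 cushion mesenchyme markers 2 passed the adjusted p as lower, beside 5.59% of all genes, and none was called. None of the 6 epicardium and 6 macrophage markers passed. Called higher in replicate 2 were Myh11, 1 of 6 markers of smooth muscle and mural cells, at 0.58 and 1.37 TPM, and Nkx2-1, 1 of 6 of lung and foregut endoderm, at 0.09 and 1.02 TPM. By adjusted p alone, 1 marker of each of these lists passed as lower. The summed level of the smooth muscle list was 532 TPM in replicate 1 and 543 in replicate 2, and that of the lung and foregut list was 3.92 and 6.20 TPM. The part of these cells in the Hey1, Hey2 and Heyl ratios was not tested. Neural and neural crest markers, a source where Hes6 and Id4 are known to be high, were detected for 1 of 6 genes and summed to 8.09 and 7.09 TPM.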

How the data were processed

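The members and gene lists were chosen with earlier results of these data known. The authors deposited, per the file headers, gene and transcript tables in the layout of RSEM with expected counts (estimated reads, shared out where a read maps to several places), TPM, FPKM, posterior mean TPM and isoform percent values. The authors also deposited a posterior SD of each count, a signal in reads that measures how uncertainly reads were assigned. Per the text deposited beside the tables, annotations are GENCODE M21 (the main one) and M4 on mm10. No aligner, counter, version or strand setting is given in the sources used here. TPM is scaled over all rows, spike-ins and mitochondrial genes included.

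Symbols, coordinates (1-based) and coding sequences came from GENCODE M21, matched by gene identifier. Transcript shares are a transcript's TPM over the sum within its gene. Each level is a mean ± SD of the 2 libraries, which the labels do not show to be independent animals. Pair ratios on the log2 scale had 0.5 added to each TPM, and library ratios 0.5 to each scaled count. Expected counts were rounded for tests. Intervals are exact Clopper-Pearson at 95% and cover counting error only, since reads are not unique molecules. The test was checked on simulated libraries with counting error alone, in which 200 genes changed by 1.5 or 2 on the log2 scale. These genes were drawn from those with 100 or more reads in all. It called 99.5% of them in the right direction, and 2 unchanged genes. The check does not cover spread beyond counting or smaller changes. The alternatives were M4 tables, FPKM, posterior mean TPM, TPM without globin, mitochondrial and spike-in rows, other thresholds, pseudocounts, filters and scalings, and the exact test of edgeR 4.0.16 with a dispersion from an intercept-only fit (size factors from DESeq2 1.42.0). Named genes were the members, the 3 highest of each pathway list, list genes called between the libraries and genes that overlap a member; Hes2, Hes7, Helt, Tcf12 and Bmp2 in the library comparison were named after their values were seen, and some further genes under it are left out of the text. Python 3.11.15 and R 4.3.3 were used.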

Additional observations from a re-analysis of the deposited data

How the results depend on the processing

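All 9 members stayed detected under every alternative tried, leaving out either replicate included (9 and 9), except at a TPM of at least 5, where 8 were. On M4 the mean level of 6 members shifted by at least the SD of the 2 libraries, as for Id3 from 250 to 262 TPM. Without globin, mitochondrial, spike-in and numeric-identifier rows all 9 did, as for Id2 from 341 to 418 TPM. The SD given with each level thus covers the spread of the libraries alone. The 36 ordered pairs became 35 on M4, where the log2 ratio of Heyl to Id4 turned to -0.15. On counts not divided by length 32 met the rule. Id1 to Hes6 (-0.12), Id1 to Hey2 (-0.70) and Hes6 to Hey2 (-0.58) reversed, and Hes1 to Hey1 (0.15) kept its sign but fell within the difference between the libraries. No member was called under any scaling, filter, annotation or test, nor at an absolute log2 ratio of 0.5. The 1 member passing by adjusted p alone, Hey2 (adjusted p from 0.0250 to 0.992 over the alternatives), became 0 with spike-in totals, without the low count filter, on M4 and with the edgeR exact test. The 1 pathway gene called became 2 without the filter, 0 at a summed count of at least 100 and 0 with edgeR. Over all genes, 260 calls became 60 at a summed count of at least 100 and 157 with edgeR, and 1744 passing by adjusted p alone became 240 with edgeR. The causes were not tested. No paired analysis was possible because there is a single group.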
